A study of Homo sapiens with 8 samples.

Results

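Cytochrome P450 genes were followed in tumours of H2122, an established human lung adenocarcinoma cell line, grown as xenografts in mice. The family was taken as every symbol made of CYP, a family number, a subfamily letter and a member number, leaving out CYP51A1, CYP26A1 and CYP26B1. This gave 53 of the 59050 gene symbols in the count tables. Of the 53, 20 were expressed at 1 CPM or more in at least 4 of the 8 tumours (CPM is the read count of a gene relative to the library size, scaled by the trimmed mean of M values). RNA-seq had been done on 4 parental tumours with intact SMARCA4 (genotype WT) and 4 tumours of SMARCA4 knockout (SMARCA4 KO) cells. All 8 tumours came from vehicle-treated hosts, and the vehicle, the mouse strain, the host age, the way the knockout was made and whether the knockout line was 1 clone are not given in the sources used here. SMARCA4 is the ATPase of SWI/SNF chromatin remodelling complexes, which move nucleosomes at promoters and enhancers.

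Cytochrome P450 enzymes are haem proteins that insert an oxygen atom into lipophilic substrates. Microsomal members take their electrons from cytochrome P450 reductase (POR), with help from cytochrome b5, and mitochondrial members take them from ferredoxin. Some members oxidise drugs and inhaled chemicals, and others make or break down vitamin D, retinoids, steroids, bile acids and fatty acid mediators. Many are controlled by ligand-activated factors such as the aryl hydrocarbon receptor (AHR), the vitamin D receptor (VDR) and the pregnane X receptor (NR1I2), and by liver-enriched factors such as HNF4A.

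Promoter sequences are shown for 5 members, because 3 of them changed with the genotype while the remaining pair shares a binding element but not a level of expression. Sequences are from RefSeq on GRCh38.p14, 5′ to 3′ on the strand of the gene, and end where the gene begins in GENCODE 29, except that of CYP27C1, which ends at the RefSeq start, upstream of the GENCODE one. CYP2S1 is on the plus strand at chr19:41192969-41193048, and CYP27C1 is on the minus strand at chr2:127220300-127220549. CYP2J2 is on the minus strand at chr1:59926791-59927023, CYP3A5 on the minus strand at chr7:99680027-99680246 and CYP3A4 on the minus strand at chr7:99784266-99784434. Capitals mark TGACCT, the reverse complement of the nuclear receptor core AGGTCA, in CYP2S1 and CYP27C1, the AHR core GCGTG in CYP2J2, and an everted repeat, TGAACT and AGGTCA 6 bases apart, in CYP3A5 and CYP3A4.
CYP2S1: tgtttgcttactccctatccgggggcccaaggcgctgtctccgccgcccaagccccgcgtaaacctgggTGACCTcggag
CYP27C1: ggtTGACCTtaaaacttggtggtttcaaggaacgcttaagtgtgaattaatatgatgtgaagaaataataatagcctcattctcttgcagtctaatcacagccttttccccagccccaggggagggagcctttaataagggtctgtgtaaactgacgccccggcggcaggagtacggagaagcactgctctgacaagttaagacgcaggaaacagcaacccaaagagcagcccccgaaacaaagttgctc
CYP2J2: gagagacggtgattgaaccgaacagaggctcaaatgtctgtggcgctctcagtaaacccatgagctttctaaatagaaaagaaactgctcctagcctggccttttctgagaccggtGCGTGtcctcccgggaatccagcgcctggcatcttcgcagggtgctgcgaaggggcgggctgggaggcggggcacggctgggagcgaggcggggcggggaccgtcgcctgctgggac
CYP3A5: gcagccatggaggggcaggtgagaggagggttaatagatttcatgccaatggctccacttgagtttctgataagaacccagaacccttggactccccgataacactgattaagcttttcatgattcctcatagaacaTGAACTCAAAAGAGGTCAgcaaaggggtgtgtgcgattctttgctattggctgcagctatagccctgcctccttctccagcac
CYP3A4: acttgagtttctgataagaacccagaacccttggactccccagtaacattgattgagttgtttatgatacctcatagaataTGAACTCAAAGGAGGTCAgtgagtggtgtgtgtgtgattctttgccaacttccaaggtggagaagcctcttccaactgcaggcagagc

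CYP2S1 and CYP27C1 were higher in the knockout tumours and CYP2J2 was lower, with values given below for each. CYP27C1 has another RefSeq start, within the gene, whose window (chr2:127205768-127206017) is not shown. That window holds the AHR core GCGTG 130 to 134 bases upstream of its start. The everted repeat, a known element of the pregnane X receptor in CYP3A genes, was found in 3 of 35116 RefSeq promoters when both strands of the 250 bases before each start were searched, and these belonged to CYP3A5, CYP3A4 and ITGB1BP2. It contains the nuclear receptor core, so the 2 searches overlap. It lies 96 to 113 bases upstream of the RefSeq start in CYP3A5 and 152 to 169 bases upstream in CYP3A4. CYP3A5 was among the 5 most abundant members at 82.4 ± 52.0 CPM (SD, n = 4) in parental tumours, whereas CYP3A4 had 19 reads over all 8 tumours. NR1I2 itself had 0 counts in every tumour.

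Of the 53 members, 36 had 48 promoter entries in the RefSeq table. The AHR core GCGTG was in 10 of these 48 windows (20.8%) and in 32.2% of all promoters of that length. The nuclear receptor core AGGTCA was in 13 of 48 (27.1%) against 12.1% of all promoters. The AP-1 motif TGANTCA was in 4 of 48 (8.33%) against 6.57%, in CYP4F11, CYP4F3 and 2 start sites of CYP19A1. A match to these letters is a description of the window and not a binding site. CYP1B1, CYP24A1, CYP27B1, CYP2C18, CYP2D6, CYP2D7 and CYP4F12 were among the tested members without an entry.

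The libraries held 19785922 to 23191698 gene counts each, and 79.1% to 85.2% of reads were assigned to a gene. SMARCA4 fell from 220 ± 16.0 to 27.2 ± 3.89 CPM (SD, n = 4 each; log2 fold change −3.02, adjusted p = 1.45e-07), so the libraries matched their genotype labels. The epithelial markers EPCAM, KRT7, KRT8, KRT18 and KRT19 were abundant in all 8 tumours, and KRT7 and KRT19 were lower in the knockout. NKX2-1, a transcription factor of lung lineage cells, had 0 counts in all 8, and the lung markers NAPSA and SFTPB reached at most 1.22 and 0.373 CPM. The summed level of 8 leukocyte markers was 6.88 to 65.3 CPM in parental and 11.9 to 28.6 CPM in knockout tumours, with no marker called. The sum of 6 fibroblast markers was 179 to 605 CPM and 342 to 602 CPM, with 1 marker higher. Sums of 5 endothelial markers were 7.14 to 17.6 CPM and 8.34 to 15.04 CPM, with 1 lower, and those of 5 skeletal muscle markers 0.134 to 22.3 CPM and 0.0974 to 12.6 CPM. In bulk tumours, fewer cells of a type and less RNA per cell cannot be told apart. The hosts were mice, while reads were counted on the human genome, and any removal of mouse reads is not given. Counts of leukocyte, fibroblast, endothelial and muscle markers may thus come from host cells or tumour cells, and they do not measure host cells.

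P450 genes that passed the filter on low counts were called in both directions between the genotypes, more of them higher in the knockout. The vitamin A enzyme CYP27C1, the carcinogen-metabolising CYP1B1, the epithelial CYP2S1, the oestrogen-forming CYP19A1 and the CYP2C genes CYP2C18 and CYP2C19 were 2.08- to 5.17-fold higher. The epoxygenase CYP2J2 was lower. The drug-metabolising CYP2D6 was lower too, but its count summed with that of its close relative CYP2D7 was not called. The most abundant member, the vitamin D-degrading CYP24A1, was not called. Of the 53 members, 23 passed the filter on low counts, 22 had reads but did not pass and 8 had no reads. Of the 23 tested, 12 passed an adjusted p of 0.05 (edgeR quasi-likelihood test with Benjamini-Hochberg adjustment over all genes), against 27.0% of all 16219 genes tested. In the knockout, 10 members were higher (13.0% of all genes were) and 2 were lower (14.1%). Groups of 4 tumours did not overlap for 12 of the 23, beside 29.3% of all genes (14.0% higher and 15.3% lower in the knockout). These were the same 12 members. Lack of overlap mostly goes with a call, as it held for 3893 of the 4385 genes called. The median log2 fold change was 0.28 over the 23 and 0.00 over all genes. These counts describe the members that passed and not the family, since CYP19A1 and CYP2C19 passed only through the knockout tumours. With no filter on low counts, 10 members were called higher and 5 lower (14.6% of all genes were called). A filter at 1 CPM in 4 tumours gave 8 higher and 2 lower (28.2% of all genes were called).

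**Figure D1:**
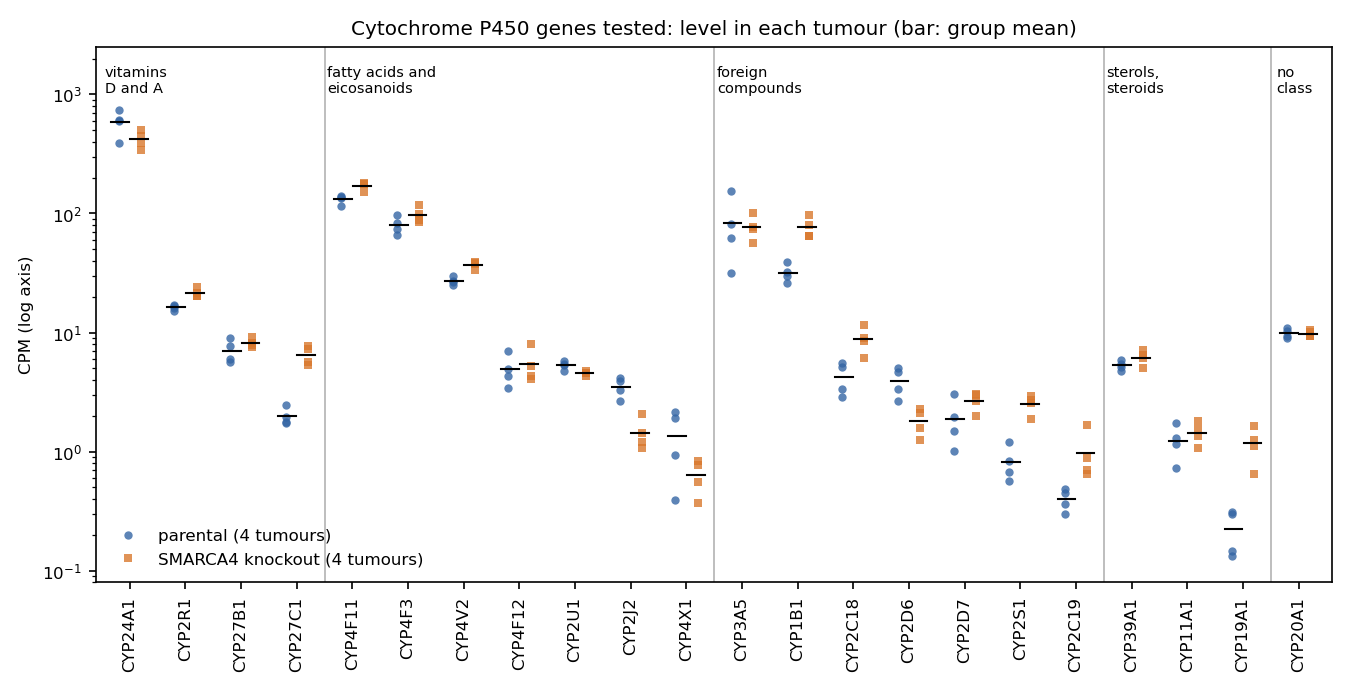
CPM (log axis) of tested cytochrome P450 genes in each of 4 parental (circles) and 4 SMARCA4 knockout tumours (squares), grouped by substrate, with bars at the group means. CYP24A1 stands highest in both groups, and the CYP1B1 and CYP27C1 points of the 2 groups do not overlap.

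Levels can be compared between genes only per length, so CPM was divided by the exon length in GENCODE 29. On that scale CYP24A1 was highest in both groups, at 147 ± 36.8 CPM per kb in parental and 105 ± 17.4 CPM per kb in knockout tumours. CYP4F11 followed at 32.8 ± 2.86 and 42.4 ± 3.10 CPM per kb, and CYP4F3 at 14.5 ± 2.35 and 17.6 ± 2.63 CPM per kb. Next in parental tumours came CYP3A5, at 12.2 ± 7.70 CPM per kb, a spread that reaches CYP1B1 below it and CYP4F3 above it. CYP1B1 ranked below CYP3A5 in parental tumours at 5.29 ± 0.895 CPM per kb and above it in knockout tumours at 12.8 ± 2.57 CPM per kb, within the spread of CYP3A5 at 11.4 ± 2.75 CPM per kb. CYP19A1 was the lowest tested member in both groups, at 0.0263 ± 0.0112 and 0.139 ± 0.0490 CPM per kb. CYP2C19 came next in parental tumours at 0.102 ± 0.0217 CPM per kb. In knockout tumours CYP2C19 was level with CYP4X1, at 0.249 ± 0.122 and 0.250 ± 0.0837 CPM per kb. AL583836.1, named here after its values were seen, had 0 reads. It overlaps 37.3% of the CYP2C19 exons and 38.5% of the CYP2C18 exons on the same strand. Reads there can be lost as ambiguous, which would lower these levels per kb. The share of CYP24A1 in the family was taken from CPM not divided by length, so it is of reads and not of transcripts. CYP24A1 made up 57.4% ± 4.92 of the summed CPM of all members in parental and 43.1% ± 5.35 in knockout tumours. That sum was 1011 ± 194 CPM and 968 ± 63.7 CPM (SD, n = 4 each), a difference smaller than the spread between tumours.

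Among the vitamin D and A enzymes, 2 of 4 tested members were higher in the knockout and none was lower. Of all genes tested, 13.0% were higher and 14.1% lower. CYP27C1 (chr2:127184120-127220078), a mitochondrial enzyme that desaturates retinol, had 1.76, 1.95, 1.74 and 2.46 CPM in parental replicates 1 to 4 and 7.74, 5.35, 7.27 and 5.68 CPM in knockout replicates 1 to 4. Every knockout tumour was above every parental one. The log2 fold change was 1.71 (SE 0.19, adjusted p = 7.28e-05), a 3.28-fold difference and the smallest adjusted p of any member. CYP2R1 (chr11:14877440-14892252), the microsomal enzyme that makes the circulating form of vitamin D, was at 15.2, 17.0, 16.1 and 16.7 CPM in parental and 21.4, 20.4, 20.3 and 24.3 CPM in knockout tumours. The groups did not overlap although the step was small, at 1.33-fold (log2 fold change 0.41, SE 0.098, adjusted p = 0.00927).

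CYP24A1 (chr20:54153449-54173973), which inactivates vitamin D and is a classical VDR target, had 609, 594, 746 and 392 CPM in parental and 499, 446, 391 and 339 CPM in knockout tumours. Parental replicate 4 lay within the knockout range, and the other 3 parental tumours lay above it. The log2 fold change was −0.48 (SE 0.18, adjusted p = 0.0678), past the threshold with DESeq2 (adjusted p = 0.0313) and without parental replicate 4 (adjusted p = 0.00671). CYP27B1, the mitochondrial enzyme that makes the active hormone, averaged 7.06 ± 1.51 CPM in the parental group and 8.19 ± 0.647 CPM in the knockout group and was not called (adjusted p = 0.368). VDR, the receptor of that hormone, was lower in the knockout: 46.7, 45.3, 58.0 and 56.0 CPM in parental against 24.0, 26.0, 27.7 and 25.8 CPM in knockout tumours (log2 fold change −0.99, SE 0.10, adjusted p = 4.33e-05).

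Enzymes of fatty acids and eicosanoids moved in both directions, with 2 of 7 tested members higher and 1 lower. The shares over all genes were 13.0% and 14.1%. CYP4F11 (chr19:15912367-15934867), which hydroxylates the end of fatty acids and vitamin K side chains, had 134, 115, 141 and 137 CPM in parental and 152, 175, 177 and 179 CPM in knockout tumours. All 4 knockout tumours were above the parental range, and replicate 1 was the lowest of them. The difference was 1.30-fold (log2 fold change 0.37, SE 0.091, adjusted p = 0.0108). CYP4V2 (chr4:186191520-186213456), a fatty acid hydroxylase mutated in Bietti crystalline dystrophy, had 29.7, 26.9, 25.1 and 26.4 CPM in parental and 37.5, 38.1, 39.2 and 33.5 CPM in knockout tumours. The tumours within each group were close to each other and the groups were apart. The difference was 1.37-fold (log2 fold change 0.46, SE 0.091, adjusted p = 0.00321).

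CYP2J2 (chr1:59893308-59926790), which turns arachidonic acid into epoxides, went the other way. It had 3.31, 2.68, 3.92 and 4.12 CPM in parental and 1.21, 1.07, 1.44 and 2.05 CPM in knockout tumours. No knockout tumour reached the lowest parental one, and the level was 2.42-fold lower (log2 fold change −1.28, SE 0.25, adjusted p = 0.00263). The epoxides that CYP2J2 makes are hydrolysed by soluble epoxide hydrolase (EPHX2), which was higher in the knockout, at 3.36, 3.56, 5.26 and 3.52 CPM in parental and 8.77, 8.08, 10.6 and 9.09 CPM in knockout tumours (log2 fold change 1.21, SE 0.17, adjusted p = 0.000393). Parental replicate 3 had the highest EPHX2 of its group and still lay below every knockout tumour.

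CYP4F3 (chr19:15640897-15662825), which inactivates leukotriene B4, had 73.8, 66.2, 83.2 and 96.3 CPM in parental and 84.3, 99.4, 88.2 and 117 CPM in knockout tumours. Parental replicate 4 lay within the knockout range and CYP4F3 was not called (log2 fold change 0.28, SE 0.13, adjusted p = 0.147). The CYP4F genes of chromosome 19 are close in sequence, so reads can be split or lost between them. Their summed count, with CYP4F2 and CYP4F12, was higher in the knockout at 217 ± 23.1 and 274 ± 25.7 CPM (log2 fold change 0.33, adjusted p = 0.0325, a sum chosen after the single values were seen). CYP4F12, CYP2U1 and CYP4X1, also fatty acid oxidases, had group means of 0.638 to 5.39 CPM and were not called. CYP4X1 was called lower without parental replicate 2 (adjusted p = 0.0161 against 0.118 with all tumours), the parental tumour with the least of it.

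Among enzymes of foreign compounds, 5 of 8 tested members were higher in the knockout and 1 was lower. Over all genes these shares were 13.0% and 14.1%. CYP2C19, counted among the 5, reached the cutoff of the filter in 1 parental and 4 knockout tumours. CYP1B1 (chr2:38066973-38109902), which activates polycyclic aromatic hydrocarbons and hydroxylates oestradiol, had 38.9, 30.0, 26.0 and 32.3 CPM in parental and 65.3, 97.0, 80.8 and 64.2 CPM in knockout tumours. The lowest knockout tumour was well above the highest parental one. The log2 fold change was 1.27 (SE 0.16, adjusted p = 0.00013), a 2.42-fold difference. CYP1B1-AS1, which lies on the opposite strand over 11.3% of the CYP1B1 exons, was at 2.74 ± 0.644 and 4.38 ± 1.80 CPM and was not called (adjusted p = 0.0922), and without strand its reads cannot be told from those of CYP1B1. CYP1B1 is also a fibroblast gene. The summed fibroblast markers were lowest in parental replicate 4 and highest in parental replicate 2, which had 32.3 and 30.0 CPM of CYP1B1. Collagen COL1A1 was 173 to 571 CPM in parental and 316 to 564 CPM in knockout tumours and was not called, and DCN was at most 0.438 CPM. LUM, another of the 6 fibroblast markers, was higher in every knockout tumour, as CYP1B1 was, at 0.103, 0.487, 0.267 and 0.637 CPM in parental and 10.1, 13.4, 10.7 and 15.5 CPM in knockout tumours. Fibroblasts of the host would be mouse cells, so these counts do not measure them. The part of such cells in the CYP1B1 difference was not tested.

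CYP1B1 is an AHR target outside the liver, and CYP1A1 is the classical inducible one. CYP1A1 had 0 reads in parental and 2 reads in knockout tumours, too few for a comparison, and CYP1A2 had 6 and 2 reads. AHR was lower in the knockout, at 79.3, 64.3, 64.8 and 74.3 CPM in parental and 39.5, 45.1, 36.9 and 34.6 CPM in knockout tumours (log2 fold change −0.86, SE 0.11, adjusted p = 0.000152). Its partner ARNT was at 67.8 ± 7.26 and 83.4 ± 13.9 CPM and was not called (adjusted p = 0.105), although it passed the threshold when knockout replicate 4 (adjusted p = 0.0198) or parental replicate 2 (adjusted p = 0.0474) was left out. The AHR repressor AHRR, itself a target, had 34 reads in all. The target TIPARP was at 35.2 ± 3.01 and 33.9 ± 9.87 CPM and was not called.

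CYP2S1 (chr19:41193049-41207539), an epithelial member that acts on retinoids and lipid peroxides, had 0.569, 0.828, 1.20 and 0.679 CPM in parental and 2.57, 2.73, 2.94 and 1.86 CPM in knockout tumours. Every knockout tumour was above every parental one. The difference was 3.05-fold (log2 fold change 1.61, SE 0.27, adjusted p = 0.00121).

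CYP2C18 and CYP2C19 lie on chromosome 10, and both were higher in the knockout. CYP2C19 is best known as a hepatic drug oxidase, and CYP2C18 is transcribed in epithelia. CYP2C18 (chr10:94683621-94736190) had 2.90, 5.17, 5.53 and 3.35 CPM in parental and 6.11, 9.01, 8.48 and 11.6 CPM in knockout tumours (log2 fold change 1.05, SE 0.25, adjusted p = 0.00845). The groups were apart, and knockout replicate 4 was the highest tumour for both genes. CYP2C19 (chr10:94762681-94853205) was at 0.398 ± 0.0851 and 0.977 ± 0.477 CPM, with 117 reads in all (log2 fold change 1.29, SE 0.37, adjusted p = 0.0245). That call was lost on leaving out parental replicate 1 (adjusted p = 0.0617), parental replicate 4 (adjusted p = 0.0635) or knockout replicate 4, where the log2 fold change was 0.89 (adjusted p = 0.0652). CYP2C genes are close in sequence, the transcripts of CYP2C18 and CYP2C19 being 84.7% identical over 1801 aligned bases, so reads can be exchanged. CYP2C8 had 7 reads over all 8 tumours.

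Because CYP2C19 is a hepatocyte gene, the 8 hepatocyte markers are given beside it. Their sum was 843 to 1611 CPM in parental and 799 to 1235 CPM in knockout tumours, nearly all of it SERPINA1 and FGB. Only FGB, a fibrinogen chain, was higher in the knockout, and no marker was lower. TTR had 0 counts in all 8 tumours, ALB at most 0.186 CPM, APOA1 at most 0.103 CPM and AHSG at most 0.146 CPM.

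CYP2D6 (chr22:42126499-42130906), which oxidises many amine drugs, had 3.36, 4.68, 4.99 and 2.67 CPM in parental and 1.26, 2.09, 1.58 and 2.28 CPM in knockout tumours. The groups did not overlap, and the level was 2.17-fold lower (log2 fold change −1.12, SE 0.26, adjusted p = 0.00865). Its neighbour CYP2D7 (chr22:42140203-42144577), annotated as a polymorphic pseudogene, was at 1.89 ± 0.880 and 2.68 ± 0.482 CPM and was not called (log2 fold change 0.50, SE 0.31, adjusted p = 0.264), although it was called higher without parental replicate 3 (adjusted p = 0.0474). The 2 transcripts are 96.0% identical over 1717 aligned bases. CYP2D6 made up 69.1%, 70.6%, 61.9% and 72.4% of the reads of the pair in parental and 32.1%, 41.3%, 44.2% and 42.6% in knockout tumours. The mean share was 68.5% ± 4.62 against 40.1% ± 5.40 (SD, n = 4 each; exact two-sided permutation test, p = 0.0286, the smallest this design allows). The share is made from the same counts as the CYP2D6 call, so its p-value is no separate support for that call. The summed count did not pass the threshold (log2 fold change −0.37, SE 0.24, adjusted p = 0.288). The call on CYP2D6 was thus seen only with the reads divided between the pair as counted. Whether reads were misplaced between the pair was not tested.

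**Figure D2:**
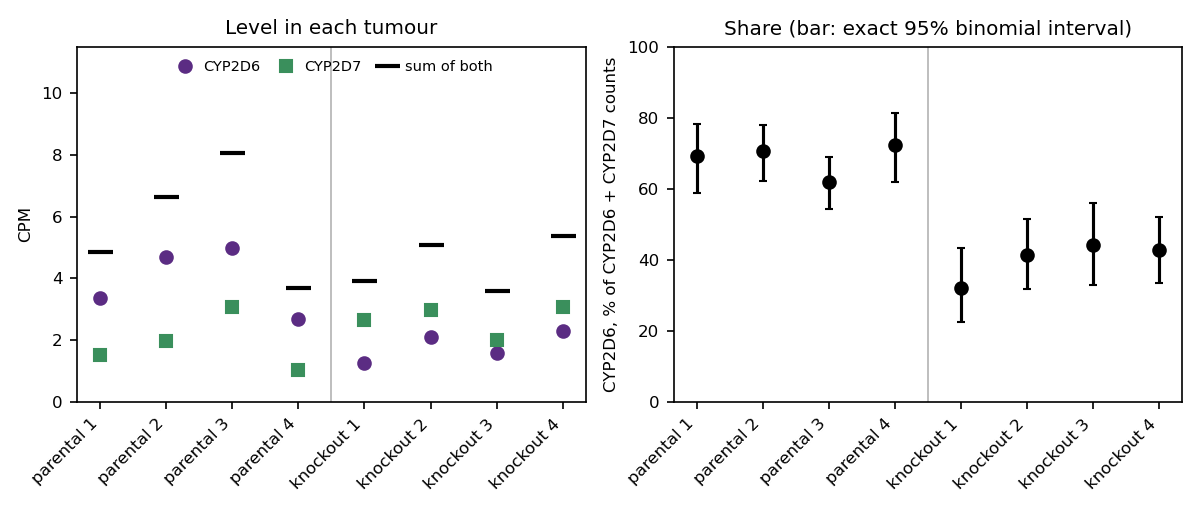
Left, CPM of CYP2D6 (circles), CYP2D7 (squares) and their sum (bars) in each of the 8 tumours. Right, CYP2D6 as a percentage of the reads of both genes, with exact 95% binomial (Clopper-Pearson) intervals that cover counting error only. The 4 parental shares are 61.9% to 72.4% and the 4 knockout shares 32.1% to 44.2%.

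CYP3A5 (chr7:99648194-99680026), a drug and steroid oxidase found outside the liver, had 62.3, 82.1, 154 and 31.4 CPM in parental and 73.5, 102, 56.7 and 77.1 CPM in knockout tumours. Parental replicates 3 and 4 were the highest and lowest of all 8, and the knockout tumours lay between them. The log2 fold change was −0.09 (SE 0.37, adjusted p = 0.881), and it was 0.40 without parental replicate 3 (adjusted p = 0.344).

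Of the enzymes of sterols and steroids, 1 of 3 tested members was higher, beside 13.0% of all genes. That member, CYP19A1, passed the filter only through the knockout tumours, so the count is no result about the class. CYP19A1 (chr15:51208057-51338610), aromatase, had 0.310, 0.146, 0.134 and 0.297 CPM in parental and 0.653, 1.66, 1.12 and 1.26 CPM in knockout tumours. It was low throughout and near the level of 3 reads per library (0.129 to 0.152 CPM) in 2 parental tumours. The log2 fold change was 2.37 (SE 0.40, adjusted p = 0.00109), the largest among the members tested. Aromatase is also known from adipose tissue. The 4 adipocyte markers summed to 0.292 to 0.580 CPM in the parental group and 0.419 to 0.932 CPM in the knockout group, with ADIPOQ at 0 in all 8 tumours. CYP39A1, an oxysterol hydroxylase of bile acid synthesis, was at 5.30 ± 0.449 and 6.14 ± 0.875 CPM, and CYP11A1, which starts steroid synthesis from cholesterol, at 1.23 ± 0.425 and 1.44 ± 0.307 CPM. Neither was called (adjusted p = 0.333 and 0.606). CYP20A1, a member with no settled substrate, was at 9.84 ± 0.828 and 9.81 ± 0.577 CPM (log2 fold change −0.01, SE 0.12, adjusted p = 0.981).

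**Figure D3:**
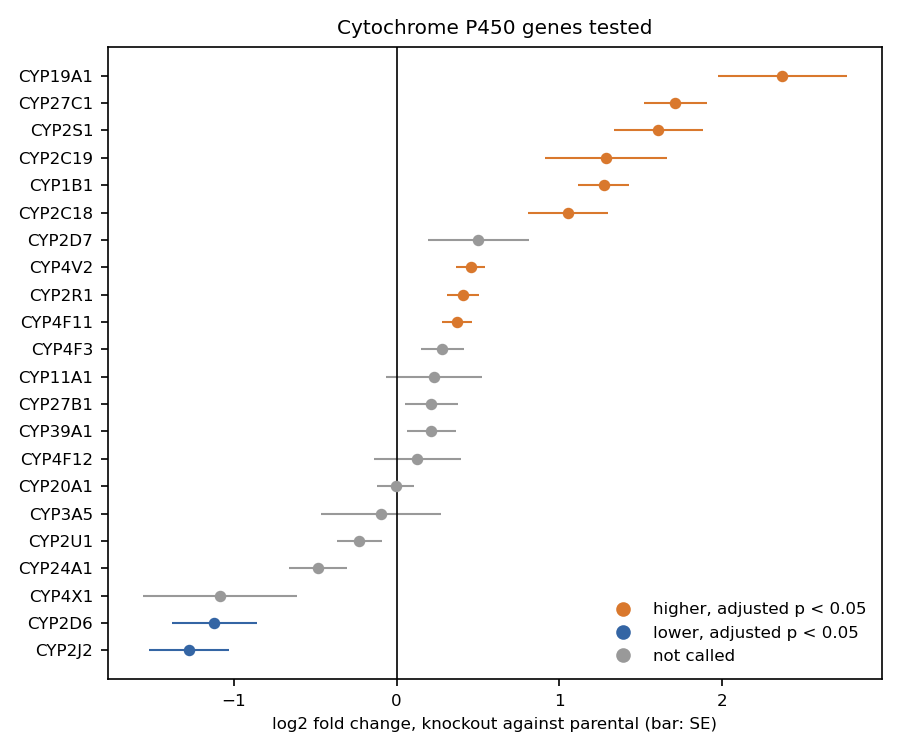
Log2 fold change of knockout against parental tumours for tested members, with bars of 1 standard error, ordered by size and coloured by the call at an adjusted p of 0.05. CYP19A1 is at the top with 2.37 and CYP2J2 at the bottom with −1.28.

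The other 30 members were at or near the limit of these libraries. CYP11B1, CYP11B2, CYP2A13, CYP2A6, CYP2F1, CYP4A11, CYP4A22 and CYP8B1 had 0 reads in every tumour, which allows up to 3 reads per library, or 0.129 to 0.152 CPM of the unscaled library. A further 22 had 1 to 55 reads over all 8 tumours. They include the hepatic drug oxidases CYP3A4, CYP2E1, CYP2B6 and CYP1A2 and the bile acid enzymes CYP7A1 and CYP27A1. CYP4B1, a lung enzyme of fatty acids and inhaled toxins, had 5, 4, 10 and 6 reads in parental and 0, 1, 0 and 2 reads in knockout tumours. No knockout tumour reached the lowest parental one, and the ratio of pooled reads was 8.24 (95% interval 2.51 to 42.6, counting error only; exact two-sided permutation test over tumours, p = 0.0286). CYP4F2, a vitamin K and fatty acid hydroxylase, had 9, 10, 15 and 8 reads in parental and 1, 7, 0 and 4 reads in knockout tumours, a ratio of 3.46 (95% interval 1.79 to 7.22; exact permutation test, p = 0.0571). Of the 6 untested members with 20 or more reads, the other 4 gave exact permutation p-values of 0.2 to 0.886. With no filter on low counts, edgeR called CYP4B1 (adjusted p = 0.00894) and CYP4F2 (adjusted p = 0.0413) lower.

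Genes such as CYP4B1 and CYP2F1 are known from club cells of the airway. The summed level of 4 club cell markers was 26.3 to 86.8 CPM in parental and 1.91 to 6.04 CPM in knockout tumours, nearly all of it BPIFA1, which was lower in the knockout (log2 fold change −4.29, adjusted p = 0.000163), while SCGB3A2 was higher. SCGB1A1, the defining marker, was at most 0.0892 CPM, and SCGB3A1 at most 0.0517 CPM. Whether these levels bear on CYP4B1 was not tested.

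The partners that P450 enzymes need were compared next. Of 11 tested redox and haem-binding partners, 4 changed, 1 higher and 3 lower (36.4% called, beside 27.0% of all genes). POR, the electron donor of every microsomal member, had 144, 120, 151 and 137 CPM in parental and 79.8, 81.6, 85.1 and 86.6 CPM in knockout tumours. The groups were far apart, and POR was 1.66-fold lower (log2 fold change −0.73, SE 0.088, adjusted p = 0.000112). CYB5B, the cytochrome b5 of the outer mitochondrial membrane, had 58.3, 55.9, 53.9 and 61.9 CPM in parental and 210.6, 210.6, 210.4 and 202.9 CPM in knockout tumours. It was 3.63-fold higher (log2 fold change 1.86, SE 0.077, adjusted p = 1.86e-07). CYB5A, the microsomal cytochrome b5, fell from 31.3 ± 5.24 to 22.4 ± 1.21 CPM (log2 fold change −0.49, adjusted p = 0.0124), and the haem-binding PGRMC1 from 93.7 ± 12.7 to 70.3 ± 2.95 CPM (log2 fold change −0.41, adjusted p = 0.00986). Ferredoxin (FDX1) and its reductase (FDXR), which serve the mitochondrial members CYP24A1, CYP27B1, CYP27C1 and CYP11A1, were not called (adjusted p = 0.861 and 0.909).

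**Figure D4:**
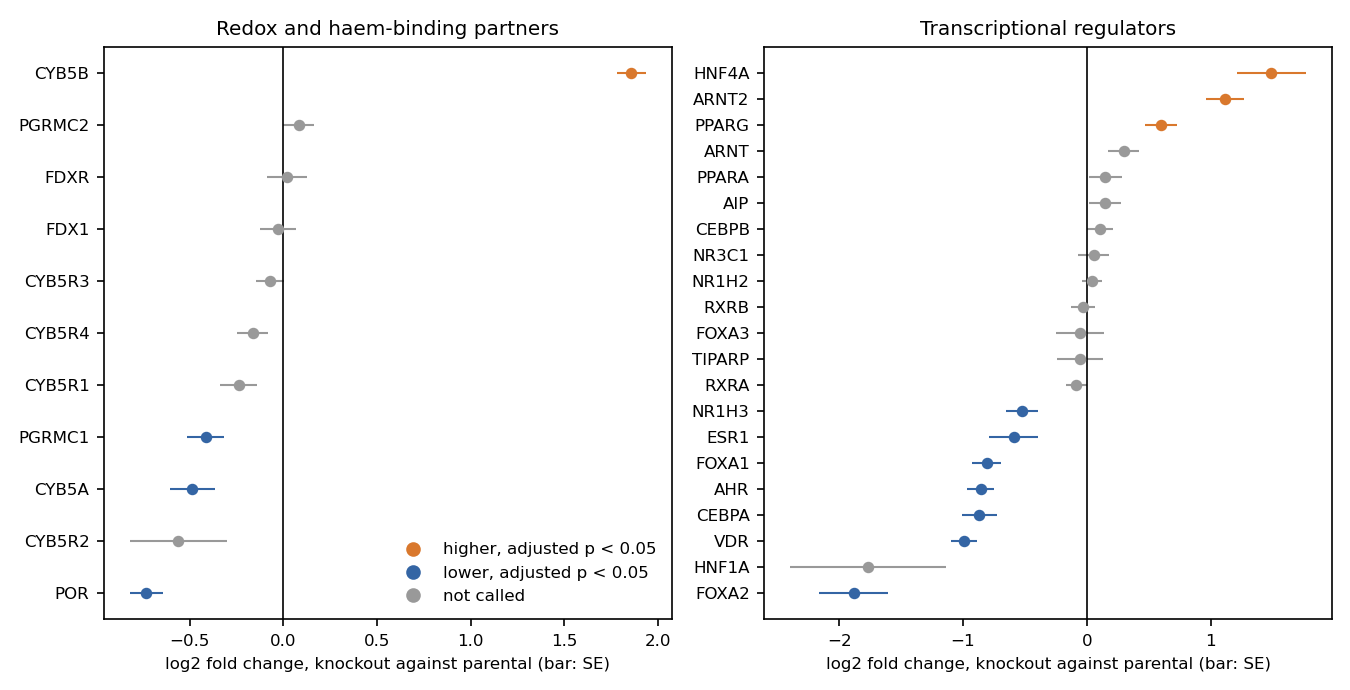
Log2 fold change of knockout against parental tumours, with bars of 1 standard error, for tested redox and haem-binding partners (left) and tested transcriptional regulators of P450 genes (right). CYB5B is at 1.86 and POR at −0.73 on the left, and FOXA2 is at −1.88 and HNF4A at 1.49 on the right.

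Of 22 tested transcriptional regulators, 11 changed, 4 higher and 7 lower (50% called, beside 27.0% of all genes). Besides VDR and AHR, the pioneer factor FOXA1 fell from 211 ± 33.2 to 121 ± 8.96 CPM (log2 fold change −0.81, SE 0.12, adjusted p = 0.000434). FOXA2, another pioneer factor of liver and lung, had 4.40, 6.14, 4.37 and 3.23 CPM in parental and 1.45, 1.07, 0.746 and 1.63 CPM in knockout tumours (log2 fold change −1.88, SE 0.28, adjusted p = 0.000482). The groups of FOXA1 and of FOXA2 did not overlap. FOXA3, named here after its values were seen, had overlapping groups at 3.91 ± 0.834 and 3.77 ± 0.536 CPM. It was not called (adjusted p = 0.874). HNF4A, which drives many hepatic P450 genes, had 0.931, 1.17, 1.38 and 0.977 CPM in parental and 2.52, 4.87, 2.28 and 2.94 CPM in knockout tumours (log2 fold change 1.49, SE 0.28, adjusted p = 0.00234). It was higher in all 4 knockout tumours but low in both groups. ARNT2, a relative of ARNT, rose from 11.7 ± 1.44 to 25.4 ± 4.85 CPM (log2 fold change 1.11, SE 0.15, adjusted p = 0.000308). Among the others called were PPARG, higher, and CEBPA, NR1H3 and ESR1, lower, named here after their values were seen. NR1I2 and NR0B2 had no reads.

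Enzymes that conjugate or hydrolyse P450 products were mostly lower where called. Of 15 tested, 6 were lower and 3 higher (60% called, beside 27.0% of all genes). This list, called conjugation genes below, also holds flavin monooxygenases, which neither conjugate nor hydrolyse. Of these FMO4 and FMO5 were tested and not called (adjusted p = 0.0966 and 0.0969), and they are named here after their values were seen. UGT1A6, which glucuronidates phenols, had 49.0, 59.3, 47.3 and 47.7 CPM in parental and 8.54, 9.88, 9.51 and 8.25 CPM in knockout tumours, 5.62-fold lower (log2 fold change −2.49, SE 0.11, adjusted p = 3.43e-07). UGT1A1, the bilirubin transferase, fell from 4.01 ± 0.969 to 1.01 ± 0.402 CPM (log2 fold change −1.99, adjusted p = 0.000541). UGT1A genes share their last exons, so their reads can be lost as ambiguous. Microsomal epoxide hydrolase (EPHX1), which acts on epoxides that CYP1B1 makes from aromatic hydrocarbons, had 340, 237, 323 and 449 CPM in parental and 90.1, 113, 110 and 159 CPM in knockout tumours (log2 fold change −1.51, SE 0.20, adjusted p = 0.000251). EPHX1 therefore differed in the opposite direction to EPHX2, and its groups did not overlap. The sterol sulfotransferase SULT2B1 rose from 16.4 ± 2.81 to 46.7 ± 5.66 CPM (log2 fold change 1.51, adjusted p = 1.76e-05).

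Of 13 tested genes of haem metabolism and P450 enzymes with other names, 3 were higher and 3 lower (46.2% called, beside 27.0% of all genes). Thromboxane synthase (TBXAS1), a P450 by fold, had 2.38, 3.70, 7.71 and 3.57 CPM in parental and 0.467, 0.584, 0.373 and 0.186 CPM in knockout tumours (log2 fold change −3.42, SE 0.43, adjusted p = 0.000156). It is also a macrophage gene, and none of the 8 leukocyte markers was called. Of the myeloid ones, CSF1R was 0.362 to 6.38 CPM in the parental group and 0.186 to 1.75 CPM in the knockout group, CD14 0.425 to 4.97 and 2.28 to 3.65 CPM, ITGAM 0.103 to 2.27 and 0.839 to 1.31 CPM and LYZ 3.78 to 38.1 and 4.71 to 17.4 CPM. Their part in the TBXAS1 difference was not tested. ALAS1, the rate-limiting enzyme of haem synthesis outside red cells, rose from 47.8 ± 3.74 to 61.2 ± 3.01 CPM (log2 fold change 0.36, adjusted p = 0.00927), and UROD, a later step, fell from 34.4 ± 2.35 to 25.2 ± 1.95 CPM (log2 fold change −0.45, adjusted p = 0.00409). The haem-degrading HMOX1 rose from 14.8 ± 1.90 to 23.2 ± 3.98 CPM (log2 fold change 0.65, adjusted p = 0.0058), and BLVRB, a reductase of flavins and some biliverdin isomers, from 59.4 ± 5.74 to 123 ± 7.12 CPM (log2 fold change 1.06, adjusted p = 1.15e-05). BLVRA, which reduces the biliverdin that HMOX1 forms and is named here after its values were seen, was not called (log2 fold change −0.07, adjusted p = 0.612).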

How the data were processed

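Raw read counts per gene symbol were deposited for each tumour, 59050 symbols and 5 summary lines per file, and the summary lines were left out. Per the submitters' processing notes, TopHat2 2.1.1, HTSeq 0.11.0 and hg38 were used. The annotation, strandedness and any removal of mouse reads are not given in the sources used here, so host reads and reads of overlapping or near-identical genes may be misplaced. Groups and replicate numbers came from the genotypes and titles. The labels do not say that tumours came from separate animals, and p-values then measure only the spread between these samples. Every 2 libraries differed by more than counting noise (chi-square per degree of freedom at least 8.21).

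The counts of all 8 tumours were fitted with edgeR 4.0.16 in R 4.3.3 (filterByExpr with a minimum count of 10 and total of 15, TMM, quasi-likelihood F-test, Benjamini-Hochberg over 16219 genes, called at 0.05). Values are mean ± SD over 4 tumours. Exact two-sided permutation tests of 4 against 4 cannot give a p under 0.0286. Ratios of pooled reads and shares carry exact 95% intervals that cover counting error only, as PCR copies were not marked by molecular identifiers, and a count of 0 was taken to allow 3. The fit was tested on simulated data. Alternatives used DESeq2 1.42.0, limma-voom 3.58.1, other scalings and filters, the replicate number as a block, each tumour left out and, added after the values were seen, sums over paralogs. Positions and exon lengths are from GENCODE 29 by symbol.

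The family, companion lists and markers (textbook roles) were chosen with earlier results of these data known. Each tested member is accounted for, with values per tumour for called members with a mean of 1 CPM or more in a group and for uncalled ones with 10 or more. AHR, ARNT, NR1I2, HNF4A, VDR, POR and up to 5 called genes with the smallest p per companion list are named, and others are said to be named after their values were seen. Some genes are included in the counts but not reported here by name.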

Additional observations from a re-analysis of the deposited data

Results flagged for a closer look

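In 92 sets of 4 tumours, 1 per gene and group, a tumour was set against the other 3, and in 6 of them its gap was above the 95% critical value of Dixon's test, which chance gives in about 1 in 20 sets. The 6 are given as values. CYP4F11 was at 152 CPM in knockout replicate 1 against 175 to 179 CPM in the other knockout tumours. CYB5B was at 202.9 CPM in knockout replicate 4 against 210.4 to 210.6 CPM, a gap that stands out only because the other 3 were so close. ARNT2 was at 18.1 CPM in knockout replicate 4 against 27.2 to 28.4 CPM. UROD was at 28.1 CPM in knockout replicate 4 against 23.9 to 24.4 CPM. UGT1A6 was at 59.3 CPM in parental replicate 2 against 47.3 to 49.0 CPM, and EPHX2 at 5.26 CPM in parental replicate 3 against 3.36 to 3.56 CPM. In all 6 genes the groups of 4 tumours did not overlap.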

How the results depend on the processing

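Of the 12 called members, 11 kept their call when each tumour was left out in turn, the exception being CYP2C19, and all 12 kept it with DESeq2, limma-voom, 3 other scalings and no filter on low counts. With 1 tumour left out, 3501 to 4721 genes, 11 to 13 members (9 to 11 higher, 2 to 3 lower), 4 to 5 redox partners, 10 to 11 regulators, 8 to 10 conjugation genes and 5 to 7 genes of haem metabolism were called. With no filter on low counts, 45 members were tested and 5 were called lower instead of 2, through CYP24A1, CYP4B1 and CYP4F2. A filter at 1 CPM in 4 tumours left 20 members, 10 of them called. Members expressed were 23 at 0.5 CPM in 4 tumours and 18 at 1 CPM in all 8. The uncalled values that changed sign were CYP3A5 (0.10 with limma-voom, −0.37 to 0.40 with 1 tumour left out), CYP20A1 (0.031 with upper-quartile scaling, −0.050 to 0.041), CYP4F12 (−0.12 to 0.35) and CYP2D7 (−0.37 when summed with CYP2D6); for CYP2D7 the sum itself is the change, and for the others the cause was not tested. Of called genes 47.9% were higher, 54.1% with upper-quartile scaling.

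Replicate numbers are shared between the groups, but deviations of same-numbered tumours correlated at −0.04, −0.00, −0.25 and 0.09 and no tumour correlated best with its own number, so the numbers were not taken as pairs. With the replicate block, 3871 genes and 12 members were called, of which 11 were also called without it. CYP24A1 entered (adjusted p = 0.034), CYP2C19 left (adjusted p = 0.0584), and CYP3A5 changed sign to 0.11. Depth limits the 30 members below the filter, for which only large differences could be seen.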

Other observations

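Parental replicate 3 was the highest and parental replicate 4 the lowest parental tumour for 6 of the 23 tested members (26.1%), among them CYP24A1, CYP2D6, CYP2D7, CYP3A5 and CYP4F12, a pattern noticed after the values were seen. The same order held for 1899 of all 16219 genes (11.7%). SERPINA1 had the same order in parental tumours, with 973, 1398, 1406 and 702 CPM in replicates 1 to 4. Between its highest and lowest parental tumour, CYP3A5 differed 4.91-fold, CYP2D7 3.02-fold and CYP24A1 1.91-fold, whereas CYP2R1 differed 1.12-fold and CYP4V2 1.18-fold. The spread of CYP3A5 was 63.1% of its mean in parental and 24.0% in knockout tumours.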
